A study of Mus musculus with 16 samples.

Results

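The 35 aminoacyl-tRNA synthetase genes described here were picked by name out of 46078 genes in a table of raw counts from mouse liver. They comprise 19 cytosolic genes and 16 mitochondrial genes, whose symbols end in 2, and all 35 were among the 12910 genes with enough counts to be tested. The livers came from 16 C57BL/6 mice aged 22 weeks with diet-induced obesity and hepatic steatosis, 1 library per animal and 4 animals per group. The Saline control group received vehicle, and the Calorie restricted group lost an equivalent amount of weight through diet. The Semaglutide group received an agonist of the glucagon-like peptide-1 receptor, and the Dicretin group a co-agonist of that receptor and the glucagon receptor. The labels give no dose, duration of treatment or sex.

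Aminoacyl-tRNA synthetases join each amino acid to its transfer RNA, the step that sets the genetic code in protein synthesis. In animals, most amino acids have separate nuclear genes for the enzyme of the cytosol and that of the mitochondrion, while Gars and Kars supply both compartments from single genes. Several cytosolic synthetases sit in a multisynthetase complex held together by scaffold proteins. When uncharged transfer RNA or other stress triggers phosphorylation of the initiation factor eIF2, the transcription factor ATF4 is made and is known to raise transcription of many cytosolic synthetase genes together with amino acid transporter and synthesis genes. In liver, glucagon is known for driving the uptake and breakdown of amino acids.

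Libraries held 12.144 to 18.755 M counts, and a member had from 25 counts (Pars2) to 20494 counts (Lars2) in a library. All 6 hepatocyte markers examined were detected in every group, with summed levels of 95040 to 114200 CPM in saline, 123400 to 143600 CPM under calorie restriction, 114800 to 143400 CPM under Semaglutide and 70990 to 91260 CPM under Dicretin; CPM is the number of counts per M counts of the library. In bulk liver RNA, fewer cells of a type and less RNA per cell cannot be told apart. The library Dicretin 64 stood apart: 6 pancreatic acinar cell markers summed to 1251 CPM there and to at most 6.675 CPM in the other 15 libraries. Dicretin 14 had the highest sum of 3 dividing cell markers, 30.48 CPM, against at most 6.182 CPM in saline. Results that rest on Dicretin 64 are given with and without it, and the part of these markers in the other results was not tested. Libraries are listed below in a fixed order: saline 35, 50, 73 and 78, calorie-restricted 7, 8, 52 and 79, Semaglutide 11, 15, 31 and 51, and Dicretin 14, 23, 64 and 65. CPM values are scaled with TMM factors, group values are mean ± SD (n = 4), and log2 fold changes are ± SE. A gene was called at an adjusted p under 0.05 in the quasi-likelihood test of edgeR, adjusted by the Benjamini-Hochberg method over all 12910 genes.

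The promoters of the members were searched for TGATGNAA, the core of the C/EBP-ATF response element through which ATF4 acts on amino acid response genes, on both strands of the 300 bases from 250 before to 50 after the RefSeq start (GRCm38.p6). Of the 35 members, 26 had a promoter in the table used. The motif was in the promoters of 5 of 12 cytosolic members (Aars, Gars, Iars, Tars and Yars) and of 0 of 14 mitochondrial members, against 3.97% of all 32851 promoters and 2.41% of the 12833 promoters of genes tested. Matches are shown because 4 of these 5 genes rose under Dicretin and 4 under calorie restriction, as described below. Each sequence is a window of 30 bases on the strand that carries the motif, with the motif in capitals. For each gene the match nearest the start is shown.

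Aars, chr8:111033840-111033869, minus strand: tcagagcgctcTGATGAAAagtgacccgct
Gars, chr6:55037960-55037989, minus strand: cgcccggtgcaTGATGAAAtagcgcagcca
Iars, chr13:49682126-49682155, minus strand: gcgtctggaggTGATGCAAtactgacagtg
Tars, chr15:11399655-11399684, plus strand: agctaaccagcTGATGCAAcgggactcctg
Yars, chr4:129189895-129189924, plus strand: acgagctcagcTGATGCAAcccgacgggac

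This match lay on the strand of the gene in Yars and on the opposite strand in Aars, Gars, Iars and Tars. Its first base on the gene's strand was 30 bases upstream of the start in Gars and 15 in Tars, and 3, 7 and 9 bases downstream in Yars, Iars and Aars. Cars, Hars, Lars, Nars, Rars, Vars, Wars, Hars2 and Pars2 had no entry. A match is a description of the letters in this window and not a binding site.

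Per kilobase of exon, cytosolic synthetase messages were mostly the more abundant class in saline livers. Their median was 11 CPM per kb, from 2.90 CPM per kb for Farsa to 23.9 CPM per kb for Nars, the asparaginyl enzyme. The mitochondrial median was 3.23 CPM per kb, from 0.318 CPM per kb for Mars2, the mitochondrial methionyl enzyme, to 66.8 CPM per kb for Lars2, the mitochondrial leucyl enzyme. Lars2 was the highest of all 35 members, and the next mitochondrial gene, Iars2, was at 7.98 CPM per kb. Iars2 shares 2034 exon bases (22.9%) with Rab3gap2 on the opposite strand, and whether the counting used strand is not stated. Cytosolic members took 0.105 ± 0.00571% of all counts in saline, 0.134 ± 0.00705% under calorie restriction, 0.107 ± 0.0153% under Semaglutide and 0.174 ± 0.0397% under Dicretin. Mitochondrial members took 0.104 ± 0.0171%, 0.113 ± 0.0166%, 0.126 ± 0.0228% and 0.0909 ± 0.0105% in the same order, most of it Lars2. Without Lars2 they took 0.0271 ± 0.000901%, 0.0268 ± 0.00162%, 0.0283 ± 0.00172% and 0.0253 ± 0.00205% in the same order. The cytosolic mean was highest under Dicretin, and both mitochondrial means were lowest there and highest under Semaglutide. These shares carry no test.

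Under Dicretin, 11 of the 19 cytosolic synthetase genes rose against saline and 1 fell, with a median log2 fold change of 0.47 against -0.01 over all genes tested. Aars, Eprs, Yars, Sars and Iars rose most, and Hars, Nars, Farsa, Gars, Cars and Qars rose less. Dars, which charges aspartate, was the member that fell. The background was high in this comparison, since 36.7% of all genes tested were called, 17.5% higher and 19.2% lower; the cytosolic shares were 57.9% higher and 5.26% lower. Without Dicretin 64, 10 cytosolic genes rose and 2 fell, with a median of 0.47.

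Aars was at 182, 174, 179.6 and 159 CPM in saline, 317, 316, 274 and 276 CPM under calorie restriction, 122, 191, 187 and 186 CPM under Semaglutide and 698, 558, 524 and 372 CPM under Dicretin. Every Dicretin library was above every library of the other 3 groups, the calorie-restricted libraries came next without overlapping saline, and Semaglutide 11 was the lowest of all 16. Aars, on chr8:111033144-111057664, encodes the alanyl-tRNA synthetase and rose by 1.63 ± 0.18 (adjusted p = 1.5e-06) on the log2 scale under Dicretin. It shares 1326 exon bases (14.3%) with Exosc6 on the same strand, and how reads there were assigned was not stated. Eprs was at 122, 119, 133 and 114 CPM in saline, 151, 166, 119 and 139.8 CPM under calorie restriction, 101, 127, 108 and 124 CPM under Semaglutide and 389.8, 284, 173 and 195 CPM under Dicretin. The Dicretin libraries were spread over a wide range, with Dicretin 14 on top, and the lowest of them was above every other library. Eprs, on chr1:185363044-185428360, encodes the bifunctional glutamyl-prolyl enzyme of the multisynthetase complex, and its log2 fold change was 1.09 ± 0.20 (adjusted p = 0.000358).

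Sars was at 60.7, 58.2, 58.5 and 52.3 CPM in saline, 52.8, 57.3, 51.2 and 62.99 CPM under calorie restriction, 82.2, 62.9, 83.01 and 65.7 CPM under Semaglutide and 94.3, 101, 123 and 115 CPM under Dicretin. All Dicretin libraries exceeded the other 12, and the Semaglutide libraries lay between them and saline. Sars, the seryl enzyme (chr3:108424865-108445209), rose by 0.91 ± 0.13 (adjusted p = 3.3e-05). Yars was at 24.6, 22.8, 22.5 and 21.4 CPM in saline, 34.7, 28.4, 29.5 and 40.01 CPM under calorie restriction, 26.8, 25.5, 28.1 and 30.2 CPM under Semaglutide and 47.7, 44.8, 50.7 and 37.3 CPM under Dicretin. Dicretin and saline did not overlap, and calorie-restricted 79 reached into the Dicretin range. Yars, the tyrosyl enzyme (chr4:129189760-129219607), rose by 0.98 ± 0.14 (adjusted p = 2.61e-05). Iars was at 25.9, 22.9, 23.6 and 22.8 CPM in saline, 47.1, 36.1, 43.97 and 37.5 CPM under calorie restriction, 18.98, 35.1, 29.4 and 33.1 CPM under Semaglutide and 60.7, 36.96, 40.1 and 33.3 CPM under Dicretin. Saline was the lowest group apart from Semaglutide 11, and Dicretin and calorie-restricted libraries overlapped. Iars, the isoleucyl enzyme of the complex (chr13:49682100-49734267), rose by 0.85 ± 0.20 (adjusted p = 0.00248).

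**Figure D1:**
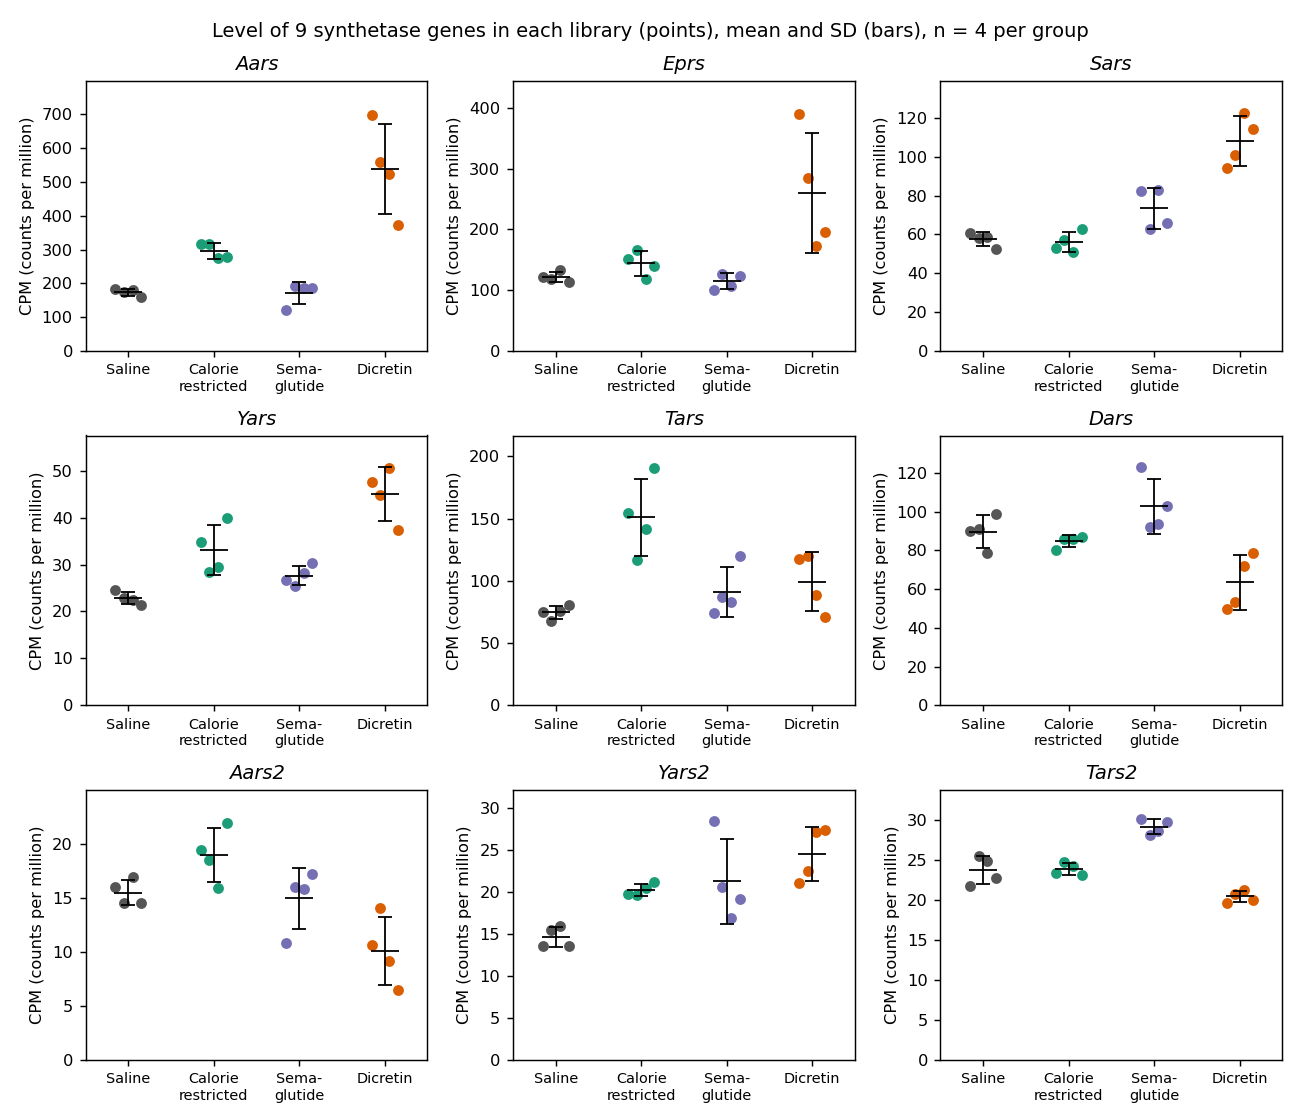
Level in CPM (vertical axis, from 0) of 6 cytosolic genes and 3 mitochondrial genes in each library (points) of the 4 groups, with bars for mean ± SD (n = 4). Aars, Eprs and Sars are highest in all 4 Dicretin libraries, Tars is highest under calorie restriction on average, and Dars and Aars2 are lowest under Dicretin on average.

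The other 6 genes that rose had smaller changes, and the Dicretin libraries of each lay above all saline libraries, as they did for 15.7% of all genes tested. Hars was at 32.1, 35.3, 36.3 and 34.2 CPM in saline, 48.9, 43.8, 41.3 and 41.4 CPM under calorie restriction, 43.6, 31.8, 43.1 and 38.00 CPM under Semaglutide and 43.4, 54.97, 61.5 and 51.3 CPM under Dicretin. Nars was at 105, 105, 103 and 103 CPM in saline, 133, 123, 119 and 135 CPM under calorie restriction, 110.5, 106, 111 and 121 CPM under Semaglutide and 195, 126, 162 and 135 CPM under Dicretin. Dicretin libraries were all above saline for both genes, the histidyl and the asparaginyl enzyme, and both genes overlapped with calorie restriction. The log2 fold changes were 0.61 ± 0.13 (adjusted p = 0.00165) for Hars and 0.57 ± 0.13 (adjusted p = 0.0025) for Nars. Gars was at 50.1, 51.4, 46.5 and 50.2 CPM in saline, 56.9, 59.9, 54.02 and 57.1 CPM under calorie restriction, 51.1, 44.8, 56.5 and 52.4 CPM under Semaglutide and 81.6, 64.2, 72.8 and 71.6 CPM under Dicretin. The Dicretin libraries were above all others for this glycyl enzyme, which serves the cytosol and the mitochondrion. Gars rose by 0.55 ± 0.11 (adjusted p = 0.000963). Hars shares 195 exon bases with Hars2 on the opposite strand, and whether the counting used strand is not stated in the labels.

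Farsa was at 12.6, 12.9, 13.7 and 13.4 CPM in saline, 18.6, 21.4, 17.4 and 18.3 CPM under calorie restriction, 16.2, 11.5, 16.2 and 14.6 CPM under Semaglutide and 18.5, 19.7, 19.4 and 19.5 CPM under Dicretin. Farsb was at 30.1, 33.1, 28.8 and 31.8 CPM in saline, 40.00, 42.7, 36.7 and 33.1 CPM under calorie restriction, 31.3, 34.03, 33.3 and 40.3 CPM under Semaglutide and 23.8, 20.5, 27.5 and 26.8 CPM under Dicretin. The phenylalanyl enzyme is built from an alpha subunit (Farsa) and a beta subunit (Farsb), and these went opposite ways: all Dicretin libraries were above saline for Farsa and below saline for Farsb. Farsa rose by 0.55 ± 0.14 (adjusted p = 0.00393), and Farsb was not called with -0.33 ± 0.13 (adjusted p = 0.0618). Without Dicretin 64, Farsb passed at -0.38 (adjusted p = 0.0463). Dars was at 89.9, 91.01, 78.4 and 98.9 CPM in saline, 80.4, 85.7, 86.00 and 86.8 CPM under calorie restriction, 123, 91.8, 93.8 and 103 CPM under Semaglutide and 49.9, 53.3, 71.95 and 78.5 CPM under Dicretin. The 4 Dicretin libraries reached from 49.9 to 78.5 CPM, and the highest of them lay just inside the saline range. Dars fell, with a log2 fold change of -0.50 ± 0.15 (adjusted p = 0.0135). The Dars call was lost without any 1 of the libraries Dicretin 14 and 23 (adjusted p = 0.0542 to 0.0622).

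The 7 cytosolic members not shown by library (Cars, Kars, Lars, Qars, Rars, Vars and Wars) had log2 fold changes from -0.06 (Vars) to 0.47 (Cars) under Dicretin. Cars, the cysteinyl enzyme, rose by 0.47 ± 0.17 (adjusted p = 0.0399) from 22.9 ± 3.21 CPM in saline to 31.7 ± 4.05 CPM. The Cars call was lost without any 1 of the libraries Dicretin 23 and 64 and saline 73 and 78 (adjusted p = 0.0566 to 0.12). Qars, the glutaminyl enzyme, rose by 0.40 ± 0.13 (adjusted p = 0.023) from 37.5 ± 2.16 CPM to 49.4 ± 6.70 CPM. The Qars call was lost without any 1 of the libraries Dicretin 65 and saline 35 and 78 (adjusted p = 0.0561 to 0.0775). Kars, Lars, Rars, Vars and Wars were not called, and neither was Tars, the threonyl enzyme, at 0.41 ± 0.19 (adjusted p = 0.0913).

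**Figure D2:**
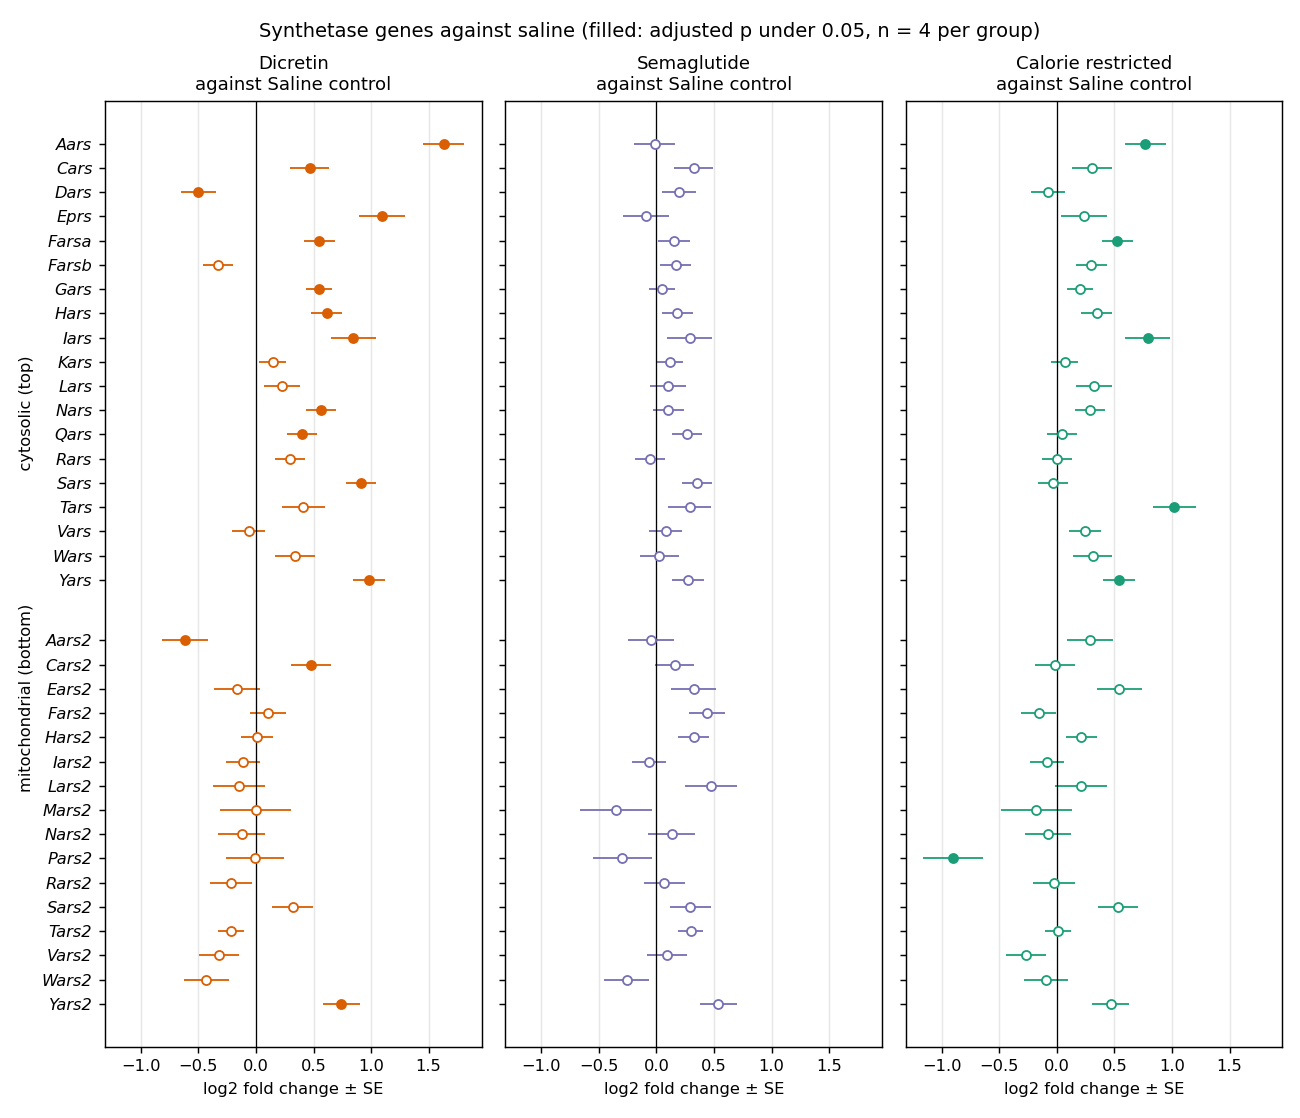
Log2 fold change ± SE (horizontal axis) of each member against saline under Dicretin, Semaglutide and calorie restriction, cytosolic genes above and mitochondrial genes below; filled points passed an adjusted p under 0.05 in edgeR's quasi-likelihood test (n = 4 per group). Of the cytosolic genes, 12 are filled under Dicretin, 0 under Semaglutide and 5 under calorie restriction.

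Mitochondrial synthetase genes moved in both directions under Dicretin: 2 of 16 rose (Yars2 and Cars2), 1 fell (Aars2), and the median log2 fold change was -0.12. The shares of 12.5% higher and 6.25% lower were both under the background of all genes. Yars2 was at 13.5, 15.4, 15.9 and 13.6 CPM in saline, 19.7, 19.6, 20.5 and 21.1 CPM under calorie restriction, 28.4, 20.5, 16.8 and 19.2 CPM under Semaglutide and 21.00, 22.4, 27.1 and 27.3 CPM under Dicretin. All Dicretin libraries were above saline, and the calorie-restricted and Semaglutide libraries also lay above saline. Yars2, the mitochondrial tyrosyl enzyme (chr16:16302965-16309640), rose by 0.74 ± 0.16 (adjusted p = 0.00135). Cars2, the mitochondrial cysteinyl enzyme, rose by 0.48 ± 0.17 (adjusted p = 0.0361). The Cars2 call was lost without any 1 of the libraries Dicretin 23 and 65 and saline 35, 50 and 73 (adjusted p = 0.0582 to 0.0987).

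Aars2 was at 15.96, 14.5, 16.9 and 14.5 CPM in saline, 19.4, 18.5, 15.9 and 21.9 CPM under calorie restriction, 10.8, 15.9, 15.8 and 17.2 CPM under Semaglutide and 10.6, 14.01, 9.15 and 6.41 CPM under Dicretin. The Dicretin libraries lay below all saline libraries, as did Semaglutide 11, and calorie restriction had the highest group mean. Aars2, the mitochondrial alanyl enzyme (chr17:45506841-45520843), fell with a log2 fold change of -0.62 ± 0.20 (adjusted p = 0.023), in the opposite direction to Aars. The Aars2 call was lost without any 1 of the libraries Dicretin 64 and 65 and saline 35 and 73 (adjusted p = 0.0547 to 0.0688). Tars2 was at 21.8, 25.6, 24.9 and 22.8 CPM in saline, 23.5, 24.8, 24.2 and 23.1 CPM under calorie restriction, 30.2, 28.2, 28.6 and 29.9 CPM under Semaglutide and 19.7, 20.8, 21.3 and 20.1 CPM under Dicretin. Semaglutide libraries were all higher than the others and Dicretin libraries all lower, with saline and calorie restriction overlapping in between. Tars2, the mitochondrial threonyl enzyme (chr3:95739976-95760206), had a log2 fold change of -0.22 ± 0.11 (adjusted p = 0.142) under Dicretin against saline and was not called.

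Fars2 was at 29.4, 29.6, 32.3 and 31.8 CPM in saline, 25.9, 31.8, 28.00 and 24.6 CPM under calorie restriction, 53.5, 39.9, 38.9 and 35.1 CPM under Semaglutide and 24.9, 33.6, 37.1 and 36.98 CPM under Dicretin. Ears2 was at 7.70, 8.72, 7.28 and 8.11 CPM in saline, 11.2, 15.3, 12.4 and 7.55 CPM under calorie restriction, 10.7, 8.28, 9.72 and 11.1 CPM under Semaglutide and 7.82, 5.77, 8.33 and 6.49 CPM under Dicretin. Pars2 was at 2.59, 3.20, 3.33 and 4.14 CPM in saline, 1.64, 1.99, 1.78 and 1.67 CPM under calorie restriction, 2.25, 3.24, 3.11 and 2.13 CPM under Semaglutide and 2.89, 2.66, 4.95 and 2.60 CPM under Dicretin. Fars2, the mitochondrial phenylalanyl enzyme, had its highest mean under Semaglutide, Ears2, which charges glutamate, had its highest mean under calorie restriction, and Pars2, which charges proline, was low in all 4 calorie-restricted libraries. Dicretin 64 was the highest library for Pars2. The other 10 mitochondrial members (Cars2, Hars2, Iars2, Lars2, Mars2, Nars2, Rars2, Sars2, Vars2 and Wars2) had log2 fold changes from -0.43 (Wars2) to 0.48 (Cars2) under Dicretin against saline. Of these, Cars2 was the gene that passed.

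Leaving out Dicretin 64 changed 3 calls among the 35 members in this comparison. Aars had a log2 fold change of 1.65 without it, and Eprs 1.25. Cars (adjusted p = 0.0842) and Aars2 (adjusted p = 0.0577) were no longer called, and Farsb became called. The mitochondrial count was then 2 higher and 0 lower, with a median of -0.18. Genes whose calls held under each of 26 alternatives were Aars, Eprs, Farsa, Gars, Hars, Iars, Nars, Sars, Yars and Yars2.

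**Figure D3:**
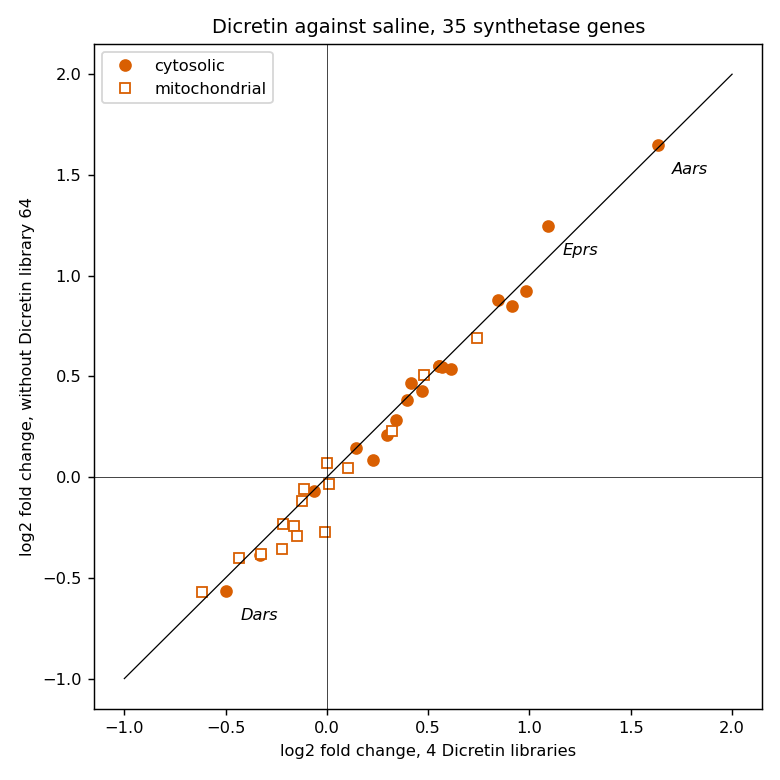
Log2 fold change of the 35 members under Dicretin against saline with all 4 Dicretin libraries (horizontal axis) and without Dicretin 64 (vertical axis), cytosolic genes as filled circles and mitochondrial genes as open squares; the line marks equal values. Aars moves from 1.63 to 1.65, Eprs from 1.09 to 1.25 and Dars from -0.50 to -0.56.

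Cytosolic synthetase genes were also higher under calorie restriction: 5 of 19 cytosolic genes rose against saline (Tars, Iars, Aars, Yars and Farsa) and 0 fell, with a median log2 fold change of 0.30 against -0.01 over all genes. Of all genes tested, 7.53% were called in this comparison, 3.42% higher and 4.11% lower, and the share of cytosolic members higher was 26.3%. Tars was at 74.8, 67.7, 75.6 and 80.2 CPM in saline, 155, 117, 142 and 191 CPM under calorie restriction, 74.4, 86.8, 83.1 and 120.0 CPM under Semaglutide and 117, 120.1, 88.4 and 70.9 CPM under Dicretin. All calorie-restricted libraries exceeded saline, and the Dicretin libraries reached from within the saline range to above it. Tars, on chr15:11382301-11399665, rose by 1.02 ± 0.19 (adjusted p = 0.00263) under calorie restriction, the largest change of a cytosolic member there.

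Aars rose from 173 ± 10.6 CPM to 296 ± 23.6 CPM, a log2 fold change of 0.77 ± 0.18 (adjusted p = 0.0114). Iars rose from 23.8 ± 1.44 CPM to 41.2 ± 5.20 CPM, with 0.79 ± 0.20 (adjusted p = 0.0187). The Iars call was lost without any 1 of the libraries calorie-restricted 7 and saline 50, 73 and 78 (adjusted p = 0.0507 to 0.0641). Yars rose by 0.54 ± 0.14 (adjusted p = 0.0225) and Farsa by 0.53 ± 0.14 (adjusted p = 0.0238). The Yars call was lost without any 1 of the libraries calorie-restricted 7 and 79 and saline 50, 73 and 78 (adjusted p = 0.0585 to 0.0852). The Farsa call was lost without any 1 of the libraries calorie-restricted 7 and 8 and saline 35 and 50 (adjusted p = 0.0554 to 0.0733). Sars, which rose under Dicretin, was at 57.4 ± 3.61 CPM in saline and 56.1 ± 5.29 CPM under calorie restriction, a log2 fold change of -0.04 ± 0.13 (adjusted p = 0.906). Eprs and Gars were not called, at 0.24 ± 0.20 (adjusted p = 0.52) and 0.20 ± 0.11 (adjusted p = 0.298). Both comparisons share the saline libraries, so their calls are not independent of each other.

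Among mitochondrial genes, Pars2 fell under calorie restriction and 0 of 16 rose, with a median log2 fold change of -0.02. The mitochondrial share lower was 6.25%, beside 4.11% of all genes tested. Pars2 had 3.31 ± 0.638 CPM in saline and 1.77 ± 0.158 CPM under calorie restriction, a log2 fold change of -0.90 ± 0.26 (adjusted p = 0.043), at 25 to 73 counts per library. The Pars2 call was lost without any 1 of the libraries Semaglutide 31, calorie-restricted 7, 8, 52 and 79 and saline 35, 50, 73 and 78 (adjusted p = 0.0524 to 0.12). Yars2, Sars2 and Ears2 had values of 0.47 ± 0.16 (adjusted p = 0.0776), 0.53 ± 0.18 (adjusted p = 0.0718) and 0.54 ± 0.20 (adjusted p = 0.1).

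With Semaglutide, 0 of 19 cytosolic and 0 of 16 mitochondrial synthetase genes passed against saline in edgeR, in a comparison where 4.18% of all genes tested were called (1.56% higher, 2.62% lower). At an unadjusted p under 0.05 there was 1 cytosolic gene (Sars) and 5 mitochondrial genes (Fars2, Hars2, Lars2, Tars2 and Yars2). DESeq2 called 0 cytosolic and 2 mitochondrial genes (Tars2 and Yars2), and limma-voom called 0 of either class. Cytosolic log2 fold changes ran from -0.09 (Eprs) to 0.35 (Sars) with a median of 0.15, and mitochondrial ones from -0.35 (Mars2) to 0.54 (Yars2) with a median of 0.14. The largest value was that of Yars2, 0.54 ± 0.16 (adjusted p = 0.0623), and Aars was at -0.02 ± 0.17 (adjusted p = 0.973). Semaglutide 11, the lowest of its group for Aars and the highest for Lars2 at 1537 CPM, had the smallest scaling factor of all libraries, 0.853. The SE of these values, from 0.11 (Tars2) to 0.31 (Mars2), leaves room for changes that this number of animals could not show.

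Set against the calorie-restricted group, Dicretin livers had higher levels of 6 cytosolic synthetases and lower levels of 3, with a median log2 fold change of 0.16. The background was 31.3% called, 15.1% higher and 16.2% lower, against cytosolic shares of 31.6% and 15.8%. Sars (0.95 ± 0.13 (adjusted p = 2.82e-05)), Aars (0.86 ± 0.18 (adjusted p = 0.00114)) and Eprs (0.86 ± 0.20 (adjusted p = 0.00332)) were higher, and so were Yars, Gars and Qars. The Yars call was lost without any 1 of the libraries Dicretin 64 and calorie-restricted 8 and 52 (adjusted p = 0.058 to 0.0663). The Gars call was lost without any 1 of the libraries Dicretin 14 and calorie-restricted 7, 52 and 79 (adjusted p = 0.0504 to 0.0611). The Qars call was lost without any 1 of the libraries Semaglutide 15, 31 and 51, Dicretin 64 and 65, calorie-restricted 7, 8, 52 and 79 and saline 35, 50, 73 and 78 (adjusted p = 0.0502 to 0.157).

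Farsb was lower under Dicretin than under calorie restriction by a log2 fold change of -0.63 ± 0.13 (adjusted p = 0.00166), Tars by -0.61 ± 0.19 (adjusted p = 0.0191) and Dars by -0.42 ± 0.15 (adjusted p = 0.0391). The Tars call was lost without any 1 of the libraries Dicretin 64 and 65 and calorie-restricted 79 (adjusted p = 0.0553 to 0.0784). The Dars call was lost without any 1 of the libraries Dicretin 14 and 23, calorie-restricted 7, 8, 52 and 79 and saline 35 and 50 (adjusted p = 0.0502 to 0.123). In the mitochondrial class, Cars2 (0.50 ± 0.17 (adjusted p = 0.0344)) and Pars2 (0.89 ± 0.26 (adjusted p = 0.0151)) were higher, and Aars2 (-0.91 ± 0.20 (adjusted p = 0.00237)) and Ears2 (-0.70 ± 0.20 (adjusted p = 0.0115)) were lower. The mitochondrial shares of 12.5% higher and 12.5% lower were under the 15.1% and 16.2% of all genes tested. The Cars2 call was lost without any 1 of the libraries Dicretin 23 and 65 and calorie-restricted 7, 8 and 79 (adjusted p = 0.058 to 0.102). The Pars2 call was lost without Dicretin 64 (adjusted p = 0.0747). The Ears2 call was lost without calorie-restricted 8 (adjusted p = 0.05). Without Dicretin 64, the cytosolic count was 4 higher and 2 lower and the mitochondrial count 1 higher and 2 lower.

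Semaglutide livers had lower Aars (-0.78 ± 0.18 (adjusted p = 0.012)) and Tars (-0.73 ± 0.19 (adjusted p = 0.0255)) than calorie-restricted livers, and higher Fars2 (0.60 ± 0.16 (adjusted p = 0.0269)). Over all genes, 6.12% were called, 3.05% higher and 3.07% lower, and the cytosolic share was 10.5% lower and 0% higher. The mitochondrial share was 6.25% higher and 0% lower. The Tars call was lost without any 1 of the libraries Semaglutide 11, 15 and 31 and calorie-restricted 7, 52 and 79 (adjusted p = 0.0502 to 0.0923). The Fars2 call was lost without any 1 of the libraries Semaglutide 11 and calorie-restricted 7, 52 and 79 (adjusted p = 0.0681 to 0.086). The cytosolic median was -0.17, and the mitochondrial median was 0.10.

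Between the drugs, 9 cytosolic genes were higher under Dicretin than under Semaglutide and 2 were lower, with a median log2 fold change of 0.35. Of all genes tested, 32% were called, 14.8% higher and 17.1% lower, and the cytosolic shares were 47.4% higher and 10.5% lower. Aars (1.65 ± 0.18 (adjusted p = 1.63e-06)), Eprs (1.18 ± 0.20 (adjusted p = 0.000198)) and Yars (0.71 ± 0.14 (adjusted p = 0.000692)) led, followed by Sars, Gars, Nars, Hars, Iars and Farsa. Dars (-0.70 ± 0.15 (adjusted p = 0.00151)) and Farsb (-0.50 ± 0.13 (adjusted p = 0.00835)) were lower. The Iars call was lost without any 1 of the libraries Semaglutide 11 and 31 and Dicretin 14 (adjusted p = 0.0669 to 0.15). The Hars call was lost without any 1 of the libraries Semaglutide 15 and Dicretin 64 (adjusted p = 0.065 to 0.0758). The Farsa call was lost without any 1 of the libraries Semaglutide 15 and 51 and Dicretin 23 and 64 (adjusted p = 0.051 to 0.115).

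All 3 called mitochondrial genes were lower under Dicretin than under Semaglutide: Tars2 (-0.51 ± 0.11 (adjusted p = 0.00182)), Lars2 (-0.62 ± 0.23 (adjusted p = 0.043)) and Aars2 (-0.57 ± 0.20 (adjusted p = 0.0394)). The mitochondrial median was -0.27. The mitochondrial share of 18.8% lower was near the 17.1% of all genes tested, and 0% were higher beside 14.8%. The Lars2 call was lost without any 1 of the libraries Semaglutide 11, 31 and 51, Dicretin 14, 23 and 65, calorie-restricted 7 and 52 and saline 35, 50 and 73 (adjusted p = 0.051 to 0.176). The Aars2 call was lost without any 1 of the libraries Semaglutide 15, 31 and 51, Dicretin 14, 64 and 65, calorie-restricted 7 and saline 35, 50 and 73 (adjusted p = 0.0513 to 0.113). Without Dicretin 64, 7 cytosolic genes were higher and 2 lower, and 2 mitochondrial genes were lower.

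The medians of the classes separated in every Dicretin library. The median over members of log2(CPM + 0.5), minus the mean of the saline libraries, was 0.37, 0.37, 0.55 and 0.47 for cytosolic genes in Dicretin 14, 23, 64 and 65. For mitochondrial genes it was -0.13, -0.19, 0.10 and -0.17 in the same libraries, so that Dicretin 64 was the library above 0. The difference between the classes was 0.45 to 0.65 in Dicretin, 0.11 to 0.38 under calorie restriction, -0.21 to 0.09 under Semaglutide and -0.04 to 0.07 in saline. Single members of the classes overlapped. In Dicretin 14, 23, 64 and 65, 16, 15, 16 and 15 of 19 cytosolic members were above their saline mean. For mitochondrial members it was 5, 5, 9 and 6 of 16. These medians and counts describe the libraries and carry no test.

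**Figure D4:**
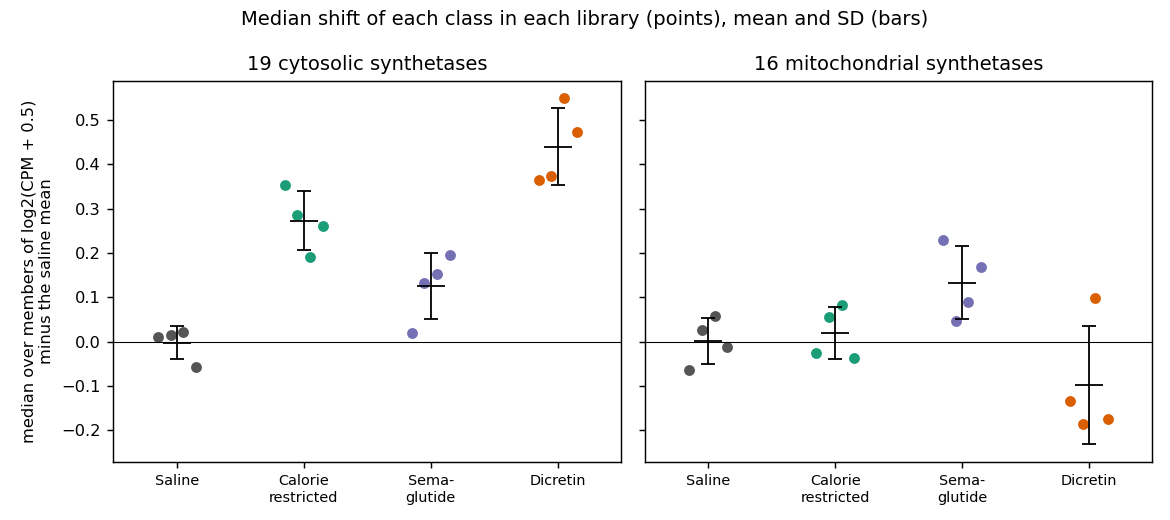
Median over the 19 cytosolic (left) and 16 mitochondrial (right) members of log2(CPM + 0.5) minus the saline mean (vertical axis) in each library (points), by group, with bars for mean ± SD (n = 4). The cytosolic medians reach 0.37 to 0.55 in Dicretin, and the mitochondrial medians run from -0.19 to 0.10 there.

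Counts of members whose libraries did not overlap between groups were set beside the same for all genes. Against saline, all Dicretin libraries were above in 12 cytosolic and 2 mitochondrial genes and below in 1 and 3, with a background of 15.7% above and 18.5% below. For calorie restriction, 8 cytosolic and 2 mitochondrial genes were above and 0 and 1 below (background 11% and 11.9%). For Semaglutide, 4 cytosolic and 4 mitochondrial genes were above and 0 of either below (background 6.42% and 7.75%). Dicretin lay above calorie restriction in 5 cytosolic and 2 mitochondrial genes and below it in 2 and 3 (background 13.2% and 15.2%), and above Semaglutide in 8 and 0 and below it in 2 and 1 (background 12% and 14.2%). Semaglutide lay above calorie restriction in 1 cytosolic and 3 mitochondrial genes and below it in 3 and 0 (background 7.45% and 8.13%).

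Genes for the same amino acid were then compared between the compartments as the log2 ratio of cytosolic to mitochondrial CPM in each library. Eprs was paired with both Ears2 and Pars2, and Farsa with Fars2. Of 15 such pairs, 14 had a higher mean ratio under Dicretin than in saline, with a median shift of 0.60 on the log2 scale. Under calorie restriction 13 of 15 were higher (median 0.36), and under Semaglutide 6 of 15 (median -0.01). The alanyl pair shifted most, by 2.27 under Dicretin. The ratio of Aars to Aars2 was 11.4, 11.9, 10.6 and 11.0 in saline, 16.3, 17.1, 17.2 and 12.6 under calorie restriction, 11.3, 11.99, 11.8 and 10.9 under Semaglutide and 65.8, 39.8, 57.3 and 58.0 under Dicretin. The Dicretin libraries were far from all others, and Semaglutide and saline overlapped. The cysteinyl pair, Cars and Cars2, had no such shift (-0.01) and both of its genes rose under Dicretin.

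The seryl pair differed between the treatments: the log2 ratio of Sars to Sars2 shifted by 0.59 under Dicretin and by -0.57 under calorie restriction. The ratio was 8.24, 8.01, 6.99 and 7.71 in saline, 5.11, 5.597, 4.84 and 5.27 under calorie restriction, 10.1, 5.88, 12.6 and 5.93 under Semaglutide and 11.2, 12, 11.1 and 12.3 under Dicretin. Saline, calorie restriction and Dicretin did not overlap, and the Semaglutide libraries were scattered across the range. Within the phenylalanyl enzyme, the ratio of Farsa to Farsb was 0.419, 0.389, 0.474 and 0.422 in saline, 0.466, 0.501, 0.474 and 0.552 under calorie restriction, 0.517, 0.337, 0.486 and 0.362 under Semaglutide and 0.775, 0.960, 0.707 and 0.728 under Dicretin. Every Dicretin library was above every other library. These ratios were read from values already described and carry no test of their own.

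**Figure D5:**
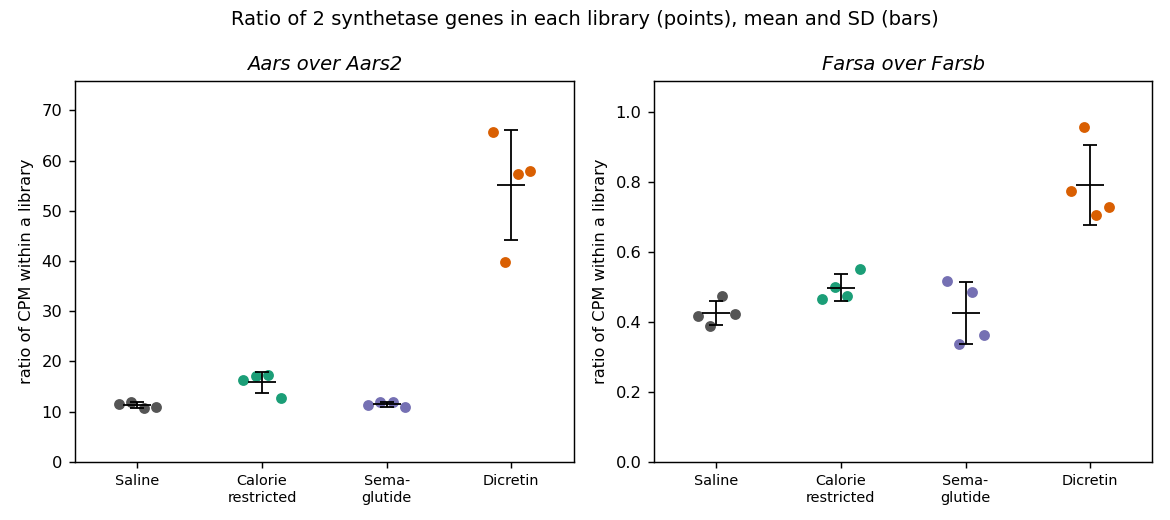
Ratio of CPM within each library (points; vertical axis from 0) for Aars over Aars2 (left) and Farsa over Farsb (right), by group, with bars for mean ± SD (n = 4). Both ratios are higher in all 4 Dicretin libraries (39.8 to 65.8 and 0.707 to 0.960) than in any other library.

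Membership of the multisynthetase complex was compared with the Dicretin response of cytosolic genes. Of the 7 members in the complex (Dars, Eprs, Iars, Kars, Lars, Qars and Rars), 3 rose and 1 fell against saline, with a median log2 fold change of 0.29. Of the 12 outside it, 8 rose and 0 fell, with a median of 0.55. The shares higher were 42.9% and 66.7%, beside 17.5% of all genes tested, and the shares lower were 14.3% and 0%, beside 19.2%. Without Dicretin 64, Cars (adjusted p = 0.0842) was no longer called and Farsb (adjusted p = 0.0463) was called lower, both outside the complex. The difference between these groups was not tested. Of the 3 scaffold genes, Eef1e1 rose under Dicretin against saline by 1.08 ± 0.25 (adjusted p = 0.00264), and Aimp1 (0.31, adjusted p = 0.267) and Aimp2 (0.24, adjusted p = 0.354) were not called. Against calorie restriction all 3 were higher under Dicretin, beside 15.1% of all genes tested. The values were 1.25 for Eef1e1 (adjusted p = 0.00116), 0.60 for Aimp1 (adjusted p = 0.0415) and 0.55 for Aimp2 (adjusted p = 0.0421). Without Dicretin 64 the Aimp1 call was lost (adjusted p = 0.124), leaving 2 of the 3. Semaglutide against calorie restriction also had 3 of 3 values above 0, with Aimp1 called (0.74, adjusted p = 0.0476). For calorie restriction against saline, 0 of 3 values were above 0 and 0 were called.

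Among the 5 motif-bearing cytosolic genes, 4 rose under Dicretin against saline (Aars, Gars, Iars and Yars) and 4 under calorie restriction (Aars, Iars, Tars and Yars). Of the 7 cytosolic genes with a promoter and no match, 4 rose under Dicretin (Eprs, Farsa, Qars and Sars), 1 fell (Dars) and 1 rose under calorie restriction (Farsa). Of all genes tested, 17.5% were higher and 19.2% lower under Dicretin, and 3.42% were higher under calorie restriction. The calorie restriction calls of Iars, Yars and Farsa were each lost without single libraries, as given above. So genes with and without these letters rose under Dicretin, and the difference between the sets was not tested.

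Many, though not all, other amino acid response genes of the ATF4 pathway rose under Dicretin as well. Of 27 tested genes in a list of ATF4 and its targets outside the synthetases, 17 rose and 2 fell against saline (63% and 7.41%, beside 17.5% and 19.2% of all genes), with a median log2 fold change of 1.27. Without Dicretin 64, 15 rose and 1 fell, with a median of 1.22. Shmt2 and Slc6a9 were the genes that fell, and the Slc6a9 call was lost without Dicretin 64. The 8 genes not called were Trib3, Chac1, Sesn2, Slc7a5, Slc7a1, Cebpb, Eif4ebp1 and Aldh18a1. Phgdh, Slc7a11, Stc2 and Pycr1 were on the list but not tested. The list was chosen with earlier results of these data known. Asns, which makes asparagine, went from 0.268 ± 0.271 CPM in saline to 20.2 ± 3.70 CPM, a log2 fold change of 6.31 ± 0.42 (adjusted p = 6.12e-09). The amino acid transporter genes Slc38a2 and Slc3a2 rose by 2.19 (adjusted p = 1.53e-07) and 2.16 (adjusted p = 8.69e-09). Under calorie restriction, with 5 cytosolic synthetases higher, 1 gene of this list rose (Atf4) and 4 fell (Cebpb, Chac1, Eif4ebp1 and Trib3), with a median of -0.11. The share of 3.7% higher was near the 3.42% of all genes, and 14.8% were lower beside 4.11%. Under Semaglutide 1 rose (Trib3) and 0 fell, beside 1.56% and 2.62% of all genes.

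In a list of 16 genes of the eIF2 pathway, 7 rose under Dicretin against saline and 1 fell, shares of 43.8% and 6.25% beside 17.5% and 19.2% of all genes. The gene that fell was Eif2ak4, which encodes an eIF2 kinase. Without Dicretin 64, 7 rose and 0 fell, but not the same genes. The calls of Eif2ak4 and Eif2b1 were lost, and Eif2ak2 was called higher. With all libraries, the genes that rose included Ppp1r15b (0.95, adjusted p = 7.04e-05) and Ppp1r15a (0.99, adjusted p = 0.000274), subunits of the phosphatase that resets eIF2. They also included Eif2s1 (0.78, adjusted p = 0.0016), the subunit that is phosphorylated. Of 5 cytosolic elongation factors, 2 rose (Eef1g by 0.50, adjusted p = 0.00959, and Eef1b2 by 0.67, adjusted p = 0.0396). Without Dicretin 64 the Eef1b2 call was lost (adjusted p = 0.106). Under Semaglutide against saline, 1 of the 5 rose (Eef1g), or 20% beside 1.56% of all genes. The median log2 fold change of the 5 was 0.52 under Semaglutide and 0.41 under Dicretin. Between the drugs, 0 of the 5 were called. For the mitochondrial side, 0 of 11 mitochondrial translation factors were called in edgeR under Dicretin against saline. In that comparison 2 had an unadjusted p under 0.05 (Gfm2 and Mtfmt), and 1 was called by DESeq2 and by limma-voom. The amidotransferase that makes mitochondrial glutaminyl-tRNA had 1 of 3 subunits lower under Dicretin against saline, Gatb (-0.73, adjusted p = 0.00114).

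Of 19 genes of RNA polymerase III and its factors, which transcribe transfer RNA genes, 3 rose and 3 fell under Dicretin against saline (15.8% each way, near the 17.5% and 19.2% of all genes), or 3 and 2 without Dicretin 64. Those with the smallest p-values were Crcp at 1.62 (adjusted p = 4.89e-07), Polr3gl at -1.01 (adjusted p = 0.00233) and Bdp1 at 0.94 (adjusted p = 0.0075). Of 3 tested proofreading genes, which remove wrongly joined amino acids, Dtd2 fell (-0.62, adjusted p = 0.0121).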

How the data were processed

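RNA was extracted with Trizol from frozen liver, and directional poly(A)-selected libraries were made, per the labels' protocols. Per the submitters' processing notes, TopHat2 2.1.1 and featureCounts were used with mm10; which annotation, options and strand the counting used is not given in the sources used here. The authors deposited whole-number raw counts per Ensembl gene, with no normalization. Symbols, positions and exon lengths came from GENCODE M21 (GRCm38), which matched 45143 of 46078 identifiers, and 22577 genes had no count in any library. In R 4.3.3 with edgeR 4.0.16, filterByExpr on the 4 groups kept 12910 genes, libraries were scaled by TMM, and 1 model over all 16 libraries was fitted with glmQLFit (robust) and tested with glmQLFTest for 6 comparisons. The adjusted p was Benjamini-Hochberg over all genes of a comparison, with a threshold of 0.05. The procedure was checked on simulated counts. The p-values rest on the spread between animals within groups, pooled over the 4 groups and drawn toward the spread of other genes. Members of a library share its scaling and are not replicates.

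Up to 12 cytosolic and 6 mitochondrial members with the smallest p in any comparison are given by library, and up to 3 genes of each of 8 other pathway lists with the smallest p for Dicretin against saline. The members, lists and rules were chosen with earlier results of these data known. Alternatives were DESeq2 1.42.0 size factors and its Wald test, upper quartile factors, limma-voom (limma 3.58.1), no filter, a filter of 1 CPM in 4 libraries, exclusion of the 20 genes with most counts, a fit to the compared groups alone, an exon length trend removed (loess span 0.5), each library left out, and Semaglutide 11 and Dicretin 14 left out together. Motif searches used RefSeq promoters.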

Additional observations from a re-analysis of the deposited data

Results flagged for a closer look

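In 140 groups of 4 libraries, 1 for each member and treatment, 6 held a library far from the other 3 by Dixon's test at 95%, and chance gives about 1 in 20. Of these, 3 were in Semaglutide 11: Aars at 122 CPM against 186 to 191 CPM in the others, Rars at 27.7 CPM against 35.9 to 36.9 CPM, and Iars2 at 55.8 CPM against 71.0 to 72.8 CPM. Dars was low in calorie-restricted 7, at 80.4 CPM against 85.7 to 86.8 CPM, and Kars in calorie-restricted 79, at 57.2 CPM against 61.7 to 62.4 CPM. Pars2 was high in Dicretin 64, at 4.95 CPM against 2.60 to 2.89 CPM.

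The summed level of 6 pancreatic acinar markers, tested in the same way, was 1250 CPM in Dicretin 64 against 0.0536 to 0.520 CPM in the other Dicretin libraries. Ctrb1 was at 498 CPM and Pnlip at 241 CPM there. In Saline control 78 the same sum was 2.89 CPM against 0.112 to 0.291 CPM in the other saline libraries.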

How the results depend on the processing

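No paired analysis was possible because the numbers in the sample titles are animal numbers that do not recur across groups. Of 51 member calls over the 6 comparisons, 25 held under all 26 alternatives, 26 were lost under at least 1, and 0 reversed. Besides the losses given with the results, upper quartile factors ended the Dicretin against saline calls of Cars, Qars and Cars2. They also ended those of Qars for Dicretin against calorie restriction and of Farsa for Dicretin against Semaglutide. Limma-voom ended the calls of Pars2 for calorie restriction against saline and of Qars for Dicretin against calorie restriction. With only the groups compared, the Dicretin against Semaglutide calls of Nars (adjusted p = 0.0884) and Farsb (adjusted p = 0.0549) were lost. Other settings ended further calls, all among those given above as lost without single libraries. With 1 library left out, the cytosolic and mitochondrial members called numbered 10 to 14 and 1 to 3 for Dicretin against saline, 0 to 0 and 0 to 1 for Semaglutide against saline, 2 to 5 and 0 to 2 for calorie restriction against saline, 5 to 9 and 2 to 4 for Dicretin against calorie restriction, 1 to 2 and 0 to 1 for Semaglutide against calorie restriction, and 9 to 12 and 1 to 4 for Dicretin against Semaglutide. All genes called ranged in the same order over 3921 to 5350, 256 to 778, 502 to 1368, 3262 to 4597, 445 to 1167 and 3580 to 4240. For Semaglutide against saline, DESeq2's Wald test gave 2 mitochondrial members and 982 genes, the length correction 1 and 849, and leaving out Semaglutide 11 and Dicretin 14 together 1 cytosolic member. For calorie restriction against saline, mitochondrial members called were 3 by DESeq2's Wald test, 0 by limma-voom, 0 without a filter, 3 with only the groups compared, 2 with the length correction and 3 without both libraries; all genes called were 1528, 2569 and 1880 with the Wald test, only the groups compared and without both libraries. With only the groups compared, Dicretin against calorie restriction had 5 cytosolic members, Semaglutide against calorie restriction 0 mitochondrial members, and Dicretin against Semaglutide 6 cytosolic members, 1 mitochondrial member and 2658 genes. For Semaglutide against calorie restriction the Wald test gave 2 mitochondrial members and 1292 genes, and for Dicretin against Semaglutide leaving out both libraries gave 5 mitochondrial members. The cause of these shifts was not tested. Depth limits Pars2, Wars2 and Mars2 most, with 25 to 93 counts per library.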

Other observations

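Lars2, the most abundant member, was at 842, 803, 778 and 541 CPM in saline, 970, 1049, 721 and 689 CPM under calorie restriction, 1537, 749, 919 and 915 CPM under Semaglutide and 501, 628, 867 and 682 CPM under Dicretin. The groups overlapped, and Semaglutide 11 was the highest library. In the list of ATF4 and its targets outside the synthetases, 21 of 27 tested genes were higher and 1 lower under Dicretin than under calorie restriction (background 15.1% and 16.2%), and 19 were higher and 2 lower than under Semaglutide (background 14.8% and 17.1%). Without Dicretin 64 these counts were 19 and 1, and 16 and 2. Gatb, a subunit of the mitochondrial amidotransferase, fell under calorie restriction as well, with a log2 fold change of -0.55 ± 0.15 against saline (adjusted p = 0.0343 in edgeR).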
